A study of Triticum aestivum with 24 samples.

Results

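The transcripts described here are those of wheat leaves whose difference between heat-stressed and control plants changed during recovery, between 1 and 4 days after treatment (DAT). They were examined with 1 contrast, heat minus control at 4 DAT minus heat minus control at 1 DAT, over 16 of the 24 RNA-seq libraries of the series. Chinese Spring plants of bread wheat (Triticum aestivum), the cultivar of the wheat reference genome, grew with 16 h of light at 18 °C and nights at 16 °C. The 72 heat-stressed plants spent 5 days at 37 °C from the boot stage and then returned to the regime of the 72 control plants. Leaves of the same plants were taken at 0, 1 and 4 DAT, and RNA of 18 plants was pooled per replicate, which gave 4 libraries for each of the groups control 1 DAT, heat 1 DAT, control 4 DAT and heat 4 DAT. Libraries of 0 DAT, when the heat had just ended, have no weight in the contrast. They shared the model's filter and estimate of spread with it and give a further readout of the same transcripts. That the RNA-seq libraries were made from these pools is inferred from their labels.

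Heat damages proteins and membranes and slows photosynthesis, and leaves that survive it restore protein synthesis, chloroplast functions and sugar use over hours to days at a moderate temperature. The contrast asks which transcripts were in a different state relative to control on the 2 recovery days. A negative value means that the heat effect was lower at 4 than at 1 DAT, and a positive value that it was higher. Calls were made at an adjusted p under 0.05 with edgeR's quasi-likelihood test over 54517 transcripts of 47179 genes. Levels are given as CPM, the count scaled by the TMM-adjusted library total, and log2 differences with an approximate standard error (SE).

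Gene names come only from the study's table of microRNA targets, found by sequencing the ends of cleaved RNAs. This table named 370 of the tested transcripts and is a selected set, since the study chose it on leaves of the same experiment. All 8 named transcripts called in the contrast are therefore listed targets. The small RNA and the stretch of transcript it pairs with are shown for 3 of them, because these tie the named transcripts to their entry in that table. Capitals in a site mark bases that form no Watson-Crick pair with the small RNA in the listed alignment, and all are written 5′ to 3′.
miR1137-310-5p: aaatagatgacccaactttgtact
site in the methionine--tRNA ligase TraesCS4A01G051900.2: aAtacaaagttAAgtcatctattt
site in the 50S ribosomal protein L5 TraesCS1D01G128800.1: aAtacaaagttgCACTatcAattt
miR1137-26-3p: catctattttggaacggaggg
site in the 60S ribosomal protein L36 TraesCS1B01G294200.1: ccctccgttccaaaatagatg
The site in the 60S ribosomal protein L36 had 0 unpaired bases over 21 positions. The methionine--tRNA ligase and 50S ribosomal protein L5 sites, both paired with miR1137-310-5p, had 3 and 6. Small RNA levels were not analysed here.

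The 16 libraries held between 5403461 and 13119876 estimated counts, and log2 levels of libraries of 1 group correlated at 0.806 to 0.89 across transcripts. The transcript of the Rubisco small chain, an abundant leaf protein (TraesCS5B01G162800.1), was between 2060 and 10300 CPM, so the tissue had the leaf transcript that its label calls for. In 4 libraries the transcript TraesCS1A01G000100.1, which has no name here, held over 1% of the counts, namely replicate 3 of heat 1 DAT (6.95%), replicate 2 of control 4 DAT (4.34%) and replicates 2 (4.57%) and 4 (3.67%) of heat 4 DAT. Its share was at most 0.692% in the other 12 libraries. Of these 4 libraries 2 were of heat 4 DAT, and results are given with and without them.

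The heat effect changed between 1 and 4 DAT in 1015 transcripts, or 1.86% of those tested. It fell in 845 (1.55%) and rose in 170 (0.312%), so that 83.3% of the changes were downward. With all libraries scaled to their total count alone, 722 fell and 17 rose (97.7% downward), and the median over all transcripts shifted by -0.16 on the log2 scale. Changes were at least 2-fold in 821 transcripts, and the smallest adjusted p was 0.00011. Leaves of the same pool of plants were compared over time, and with the pool as a block in the model 355 transcripts fell and 41 rose, 396 in all, of which 388 were among the 1015. Without the 4 libraries rich in TraesCS1A01G000100.1 the numbers were 227 and 37, and 242 of these 264 were among the 1015.

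**Figure D1:**
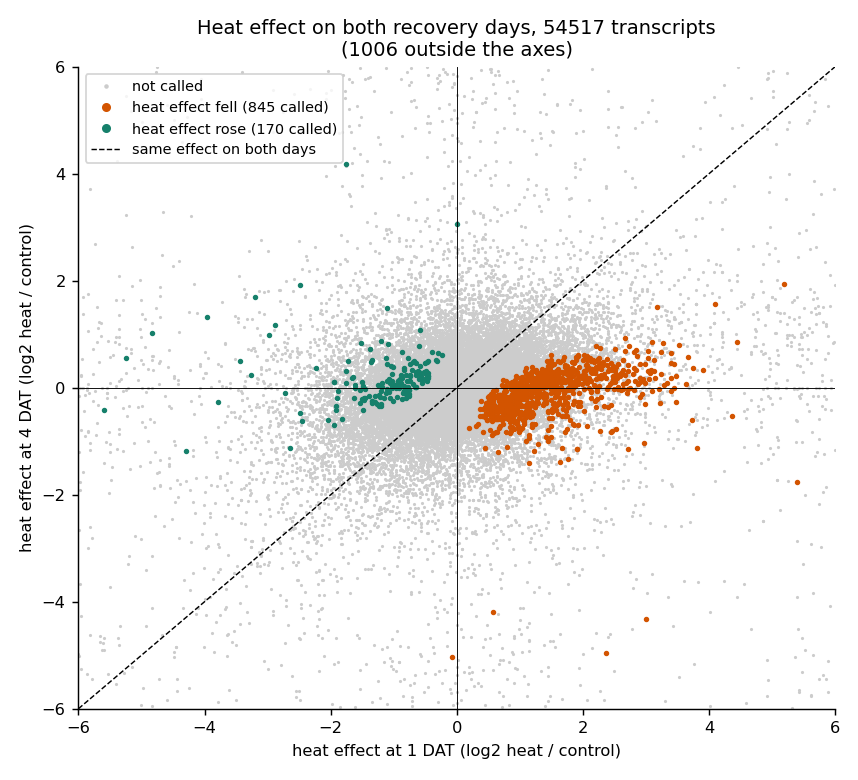
Heat effect (log2 heat over control) of each tested transcript at 1 DAT (horizontal axis) and at 4 DAT (vertical axis), with transcripts whose effect fell in orange, those whose effect rose in green and the others in grey. The 845 falling transcripts lie mainly to the right at 1 DAT and near 0 at 4 DAT, the 170 rising ones mainly to the left, and 1006 transcripts lie outside the axes.

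The calls were spread over the chromosomes and were more frequent at higher levels. Of the transcripts tested on the A, B and D subgenomes, as carried in the IDs, 1.89%, 1.85% and 1.88% were called. Transcripts were also put in 5 equal bins by the highest of their 4 group means of 1 and 4 DAT. From the lowest to the highest bin the called share was 0.101%, 0.422%, 1.02%, 2.51% and 5.25%. The binning uses the same group means as the contrast, so part of this rise can come from the calls themselves. Whether weakly expressed transcripts changed less or were harder to call at this depth was not tested. Among the 1009 genes with a call, 108 had more than 1 transcript tested, 5 had more than 1 called, and 0 had calls in both directions.

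Each day on its own gave the components of the change. Heat and control differed at 1 DAT in 7358 transcripts (13.5%), with 3988 (7.32%) higher and 3370 (6.18%) lower in heat, or 3138 higher and 1204 lower with total-count scaling. They differed at 4 DAT in 98 (0.18%). Between 1 and 4 DAT, 3757 transcripts (6.89%) changed within the heat-stressed plants. No transcript (0%) was called within control, where 2923 had an unadjusted p under 0.05 and the smallest adjusted p was 0.081, while the likelihood ratio test of edgeR called 13 and DESeq2 45. These comparisons share their libraries with the contrast and are given as its parts. With the pool block 2225 were called within heat and 0 within control. The count at 4 DAT rested on few libraries, since it was 3 without the 4 libraries above, 12 without heat 4 DAT replicate 2 and up to 116 when another library was left out.

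The 845 falling transcripts were high in heat at 1 DAT and close to control at 4 DAT. Their median heat effect was 1.35 on the log2 scale at 1 DAT and -0.05 at 4 DAT, and the median change was -1.42 (interquartile range -1.91 to -1.11), against 0.03 over all tested transcripts. The median level was 6.71 CPM in control 1 DAT, 18.4 CPM in heat 1 DAT, 8.58 CPM in control 4 DAT and 8.67 CPM in heat 4 DAT. In 806 of them the heat effect was smaller in size at 4 than at 1 DAT, and in 39 it was larger. Over all tested transcripts it was smaller in 34682 of 54517. The heat arm moved more than the control arm in 800 of the falling transcripts, against 34424 of 54517 over all tested. Their median was -1.08 from 1 to 4 DAT within heat and 0.33 within control. In 674 (79.8%, against 72% of all tested) the fitted effect at 4 DAT was within 0.5 of 0 on the log2 scale. The contrast chose the transcripts by these same values, so nothing is read from these medians, counts and shares.

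In 599 of the falling transcripts (70.9%) all 4 heat libraries of 1 DAT were above all other 12 libraries. Over all tested transcripts 3.8% had this pattern, but the contrast itself chose the transcripts, so nothing is read from the difference. The change was over 2-fold in 716 and over 4-fold in 188.

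The 170 rising transcripts were the counterpart, low in heat at 1 DAT and close to control at 4 DAT. The median heat effect was -1.02 at 1 DAT and 0.12 at 4 DAT, with a median change of 1.11. Median levels were 13.9 CPM in control and 7.46 CPM in heat at 1 DAT, against 12.8 and 13.3 CPM at 4 DAT. The effect was smaller in size at 4 DAT in 156 of them, against 34682 of 54517 over all tested. The heat arm moved more than the control arm in 160, against 34424. All 4 heat libraries of 1 DAT were below the other 12 in 118 (69.4%), a pattern that 1.84% of all tested transcripts had. In 134 (78.8%, against 72% of all tested) the fitted effect at 4 DAT was within 0.5 of 0 on the log2 scale. Here too the contrast itself chose the transcripts, so nothing is read from these medians, counts and shares.

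The libraries of 0 DAT showed the state of the same transcripts at the end of the heat. They have no weight in the contrast but entered the same fit, whose calls they therefore affect. Of the falling transcripts 539 (63.8%) were already called higher in heat at 0 DAT, against 11% of all tested. Another 9 (1.07%) were called lower, and 297 were not called. Their median heat effect at 0 DAT was 0.78, and it was above 0 in 767 and below 0 in 78. Of the rising transcripts 110 (64.7%) were called lower at 0 DAT, against 13.3% of all tested, 5 (2.94%) were called higher and 55 were not called, with a median effect of -0.68. The called transcripts had higher levels than all tested. In control 0 DAT the median was 8.08 CPM in the falling and 13.7 CPM in the rising transcripts, against 3.37 CPM over all tested. By the highest of the 4 group means of 1 and 4 DAT, the medians were 18.6, 15.5 and 4.45 CPM. That measure includes the groups by which the contrast chose the transcripts. The part of the level in these shares was not tested. The 0 DAT leaves came from the same plants. In an alternative added after the data were seen, the change was fitted on the 16 libraries of 1 and 4 DAT alone and 0 DAT on its own 8 libraries. Of 454 falling transcripts tested in both, 310 (68.3%) were then called higher at 0 DAT, against 16% of all tested in those 8 libraries, and of 45 rising transcripts 28 (62.2%) were called lower, against 15.8%. With total-count scaling, which shifted the median heat effect of 0 DAT by 0.51, the shares were 85%, against 22.7% of all tested, and 47.1%, against 4.64%.

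**Figure D2:**
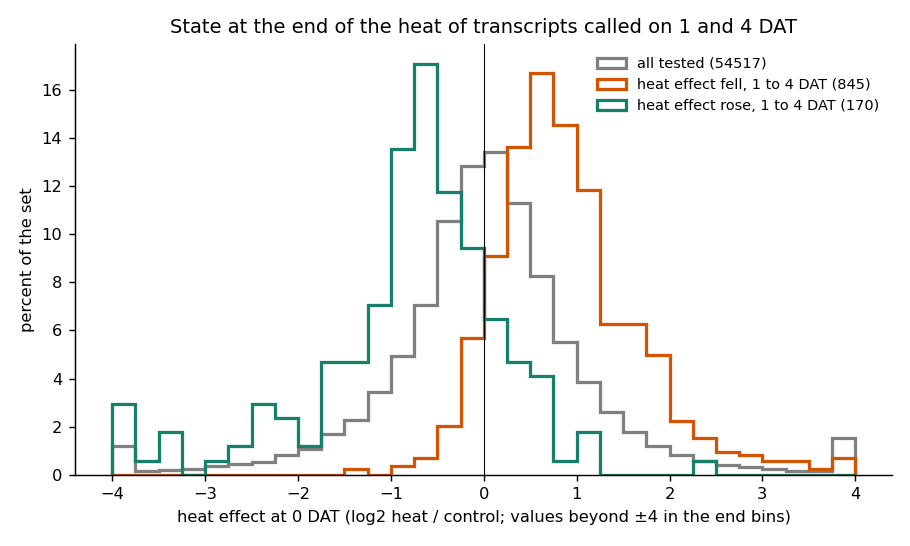
Distribution of the heat effect at 0 DAT (horizontal axis, log2 heat over control, in bins of the percent of each set) for all 54517 tested transcripts, the 845 falling and the 170 rising ones. The falling transcripts are centred at 0.78 and the rising ones at -0.68, on opposite sides of all tested transcripts at 0.03.

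Of the named transcripts 8 of 370 (2.16%) were called, against 1.86% of all tested, with 7 falling and 1 rising. The study chose these targets on the same experiment, so the share is not independent evidence. With the pool block, or without the 4 libraries rich in TraesCS1A01G000100.1, 2 of the 8 were called, a ligase on 1D and the RNA helicase on 3B.

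Translation was the list with the most calls, 3 of 14 tested members (21.4%, against 1.86% of all tested), all falling. The list did not move as 1: at 1 DAT 3 members were called higher in heat and 2 lower, with a median effect of 0.17. The changes of its members ran from -1.41 to 1.05 with a median of -0.31, against 0.03 over all tested transcripts, and 11 were not called. The methionine--tRNA ligase on 4A (TraesCS4A01G051900.2) charges the initiator and elongator tRNAs with methionine. At 1 DAT it had 6.8, 9.87, 11.4 and 6.18 CPM in control and 40.8, 29.3, 33.9 and 34.9 CPM in heat. At 4 DAT the values were 8.54, 10.1, 11.6 and 13 CPM in control and 16.8, 15.6, 15.1 and 19 CPM in heat. The groups did not overlap on either day, and the gap narrowed, with a heat effect of 2.02 ± 0.22 on the log2 scale at 1 DAT and 0.61 ± 0.22 at 4 DAT (SE, n = 4; change -1.41 ± 0.31, edgeR adjusted p = 0.021). Heat and control were not called different at 4 DAT (edgeR adjusted p = 0.35). At 0 DAT the heat effect of this ligase was 0.29 ± 0.21 (edgeR adjusted p = 0.36).

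TraesCS1B01G294200.1 on 1B, named 60S ribosomal protein L36 and so part of the large subunit of cytosolic ribosomes, had 16.4, 13.5, 11.8 and 11.7 CPM in control and 25.7, 26.5, 19 and 32.9 CPM in heat at 1 DAT. By 4 DAT control libraries had 20.5, 15.2, 15.9 and 12.7 CPM and heat libraries 15.2, 13.9, 13.7 and 13.9 CPM. Heat lay above control on the first of these days and inside its range on the second, a change of -1.15 ± 0.25 (edgeR adjusted p = 0.019). The 50S ribosomal protein L5 on 1D (TraesCS1D01G128800.1), which by its name belongs to a ribosome of the bacterial type found in organelles, had 8.93, 9.77, 8.36 and 7.61 CPM in control and 10.9, 13.2, 9.76 and 17.4 CPM in heat at 1 DAT. Its values at 4 DAT were 12.9, 12.1, 9.9 and 9.14 CPM in control and 6.64, 8.73, 8.24 and 5.75 CPM in heat. The order was reversed, with every heat library below every control library at 4 DAT, but heat and control were not called different on that day (-0.58 ± 0.19, edgeR adjusted p = 0.27), and the lowest heat library of 1 DAT lay just under the highest control. The change was -1.15 ± 0.26 (edgeR adjusted p = 0.024). At 0 DAT the heat effect was 0.53 ± 0.17 for L36 (edgeR adjusted p = 0.03) and 0.49 ± 0.18 for L5, at the threshold (0.05).

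The calls in the translation list depended on the fit. With the pool block the adjusted p was 0.079 for the methionine--tRNA ligase, 0.062 for L36 and 0.079 for L5, so 0 of 14 were called. Without the 4 libraries rich in TraesCS1A01G000100.1 it was 0.11, 0.062 and 0.08. With total-count scaling only the ligase was called, and L5 was also lost without heat 1 DAT replicate 4 (0.055), control 4 DAT replicate 1 (0.057) or replicate 2 (0.054), or heat 4 DAT replicate 1 (0.057). With only the 16 libraries of 1 and 4 DAT, L5 was lost as well (edgeR adjusted p = 0.061). The methionine--tRNA ligase reached 0.05 without heat 1 DAT replicate 1.

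The transcript TraesCS3B01G568500.1 on 3B, named as an ATP dependent RNA helicase, of a class of enzymes that unwind RNA, was called under all 28 alternatives. It had 12, 10.2, 14.1 and 10.1 CPM in control and 45.1, 35.3, 39 and 44 CPM in heat at 1 DAT. At 4 DAT control had 14, 13.6, 14.3 and 18.9 CPM and heat 16.8, 14.6, 13.9 and 18.4 CPM. A gap of 1.82 ± 0.16 (log2) thus gave way to overlapping groups at 0.06 ± 0.16, a change of -1.76 ± 0.23 (edgeR adjusted p = 0.00052). Within heat it fell by 1.36 on the log2 scale from 1 to 4 DAT, and within control the difference was 0.4 ± 0.16 (edgeR adjusted p = 0.92). At 0 DAT heat had 22 to 38.3 CPM and control 11.8 to 13.2 CPM (heat effect 1.34 ± 0.16, edgeR adjusted p = 3.3e-06), so the level was raised at the end of the heat as well.

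The ligase on 1D (TraesCS1D01G211600.1) carries the name of the bacterial enzyme that adds diaminopimelate to UDP-N-acetylmuramoyl-L-alanyl-D-glutamate. In Arabidopsis a homologue of this enzyme is needed for chloroplast development. It had 0.933, 2.42, 4.05 and 1.43 CPM in control and 23.2, 18.2, 21.7 and 28.6 CPM in heat at 1 DAT, and 3.36, 5.8, 3.87 and 4.06 CPM in control and 5.17, 6.24, 6.12 and 6.34 CPM in heat at 4 DAT. All heat libraries of 1 DAT were far above the other 12, and the groups overlapped at 4 DAT, where 1 control library lay above the lowest heat library. The heat effect went from 3.39 ± 0.33 to 0.47 ± 0.31 (change -2.92 ± 0.45, edgeR adjusted p = 0.0016), and the call was made under all 28 alternatives. Already at 0 DAT the heat mean of 19.5 ± 6.21 CPM stood above the control mean of 5.08 ± 1.31 CPM (SD, n = 4; adjusted p = 6e-05 in edgeR).

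Fructokinase-2 on 3B (TraesCS3B01G397500.1), whose product phosphorylates fructose for use in metabolism, was the only call among 6 tested members of the sugar metabolism list. Its level was low, with 0.4, 0.403, 0.653 and 0.448 CPM in control and 3.9, 3.89, 4.6 and 9.18 CPM in heat at 1 DAT. At 4 DAT control had 0.42, 0.86, 0.455 and 0.813 CPM and heat 1.05, 0.832, 0.652 and 0.396 CPM. The 4 heat libraries of 1 DAT stood clear of the others and replicate 4 stood apart from the remaining ones, with a change of -3.27 ± 0.64 (edgeR adjusted p = 0.0095). A CPM of 0.4 corresponds to about 3 counts in the control library of 1 DAT replicate 1, so the size of the change is uncertain. The adjusted p was 0.053 with the pool block and 0.11 without the 4 libraries above.

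A lipase on 2D (TraesCS2D01G362500.1), an enzyme class that releases fatty acids from lipids, had 10.1, 7.96, 10.8 and 8.24 CPM in control and 25.4, 21.2, 24.5 and 23.9 CPM in heat at 1 DAT. Its 4 DAT levels were 6.44, 8.7, 8.08 and 14.6 CPM in control and 10.3, 8.32, 8.4 and 13.7 CPM in heat. The difference of 1.36 ± 0.2 at 1 DAT was gone at 4 DAT (0.09 ± 0.21), a change of -1.27 ± 0.29 (edgeR adjusted p = 0.026). At 0 DAT it was not called (0.49 ± 0.2, edgeR adjusted p = 0.087). The edgeR adjusted p of the change rose to 0.079 with the pool block, 0.085 without the 4 libraries above and 0.084 with only the 16 libraries of 1 and 4 DAT. It was between 0.053 and 0.062 when control 1 DAT replicate 2 or 4, heat 1 DAT replicate 1, or heat 4 DAT replicate 2 or 3 was left out.

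The phosphopantothenoylcysteine decarboxylase on 7D (TraesCS7D01G163900.1), an enzyme of coenzyme A synthesis, was the 1 named transcript whose heat effect rose. It had 6.13, 5.14, 4.7 and 8.15 CPM in control and 3.52, 4.39, 2.21 and 3.52 CPM in heat at 1 DAT, against 6.16, 7.31, 6.26 and 5.38 CPM in control and 7.91, 7.49, 7.58 and 6.54 CPM in heat at 4 DAT. Heat was below control at 1 DAT without overlap and overlapped it at 4 DAT (change 1.04 ± 0.26, edgeR adjusted p = 0.041). This call was lost under 17 of 28 alternatives. The edgeR adjusted p was 0.52 with total-count scaling, 0.11 under the pool block and 0.062 to 0.11 without any 1 of 11 libraries. The heat effect of the decarboxylase at 0 DAT was 0.03 ± 0.18.

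**Figure D3:**
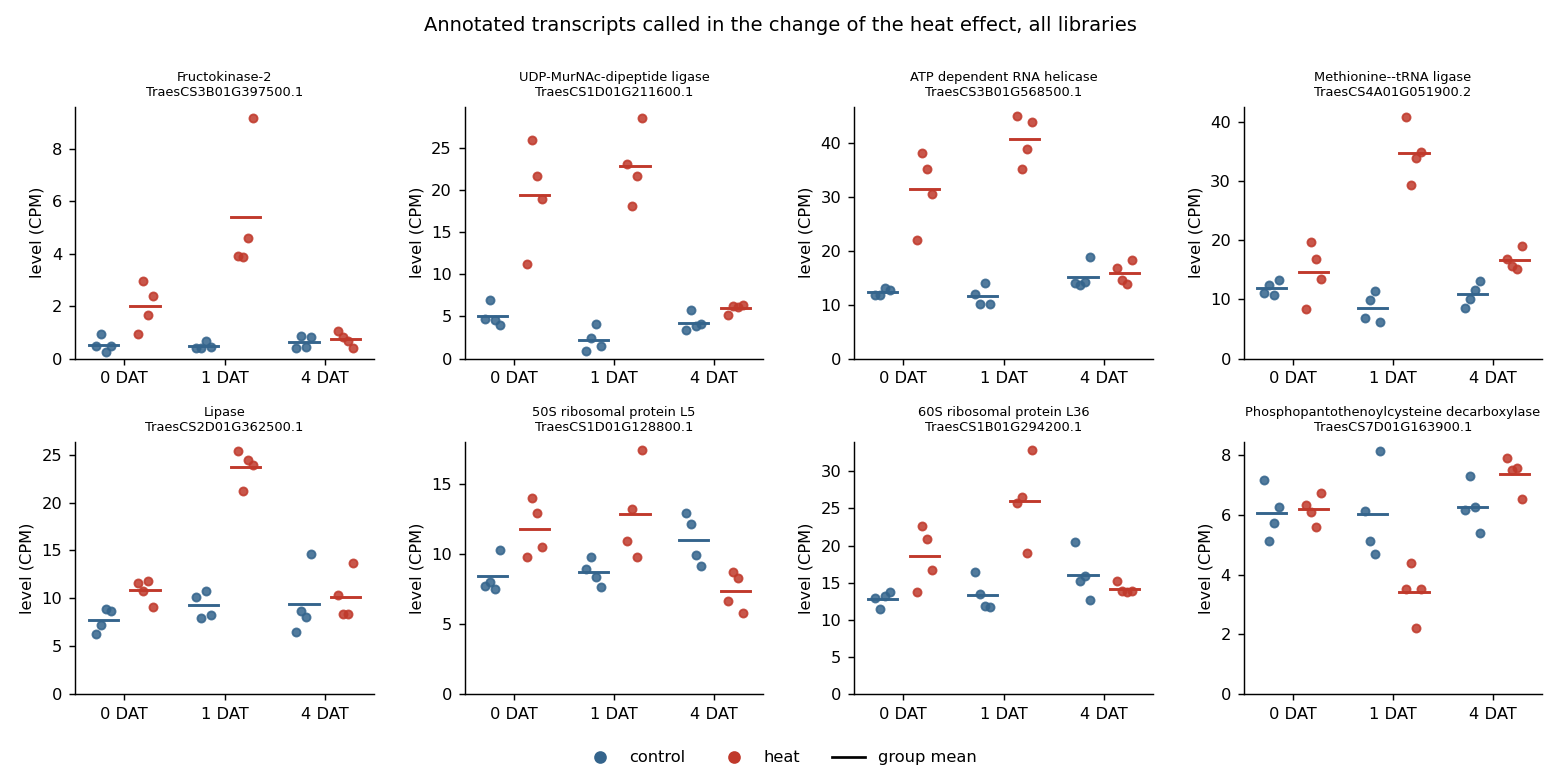
Level in CPM (vertical axis) of the 8 named transcripts called in the contrast, in each control (blue) and heat (red) library at 0, 1 and 4 DAT, with a line at the group mean of 4 libraries. In the 7 transcripts with a falling heat effect the heat mean of 1 DAT is the highest of the 6 groups, and in the decarboxylase it is the lowest.

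The other lists of named targets had 0 calls in the contrast, under a background of 1.86%, and their small size limits what these counts can show. Of the 23 tested members for plastid and mitochondrial gene expression, matched by words in their names, none was called (median change -0.05, smallest edgeR adjusted p = 0.079). The member nearest to a call, a mitochondrial transcription termination factor-like protein (TraesCS6D01G023400.1), had a change of 1.47 ± 0.42 and was called by DESeq2 (0.044) and by edgeR's likelihood ratio test (0.038). A TatC translocase (TraesCS3B01G224200.1), of the pathway that moves folded proteins across the thylakoid membrane, had 62.9 ± 10.7 CPM in heat against 40.7 ± 3.85 CPM in control at 1 DAT and 41.8 ± 1.54 against 41.3 ± 11.1 CPM at 4 DAT (SD, n = 4; change -0.61 ± 0.22, edgeR adjusted p = 0.19).

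Among 3 cytochromes P450, oxidases of many plant metabolites, TraesCSU01G247100.1 had 14.3, 5.34, 8.36 and 9.58 CPM in control and 59.8, 33.2, 24.7 and 34.1 CPM in heat at 1 DAT. At 4 DAT it had 7, 12, 10.1 and 10.9 CPM in control and 18.5, 17.9, 16.8 and 10.1 CPM in heat. The clear gap of 1 DAT was followed by groups that overlapped in 1 heat library, but the change was not called (-1.36 ± 0.4, edgeR adjusted p = 0.089). It passed in DESeq2 (0.021), in the likelihood ratio test (0.035) and without control 1 DAT replicate 1 (0.042). A P450 on 1B (TraesCS1B01G347700.1) went from 103 ± 39.1 CPM in heat against 29.7 ± 7.15 CPM in control at 1 DAT to 48 ± 15.3 against 29.3 ± 8.02 CPM at 4 DAT (SD, n = 4; change -1.09 ± 0.4, edgeR adjusted p = 0.19). The remaining P450, on 4A (TraesCS4A01G308600.1), was lower in heat at 0 DAT (-4.03 ± 0.54, edgeR adjusted p = 1.2e-05) and had 2.03 ± 0.787 CPM in heat against 4.69 ± 2.06 CPM in control at 1 DAT and 3.19 ± 2.21 against 3.93 ± 1.34 CPM at 4 DAT, with a change of 0.83 ± 0.66 (edgeR adjusted p = 0.65).

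Calcium signalling gave the 1 named transcript that was still called different between heat and control at 4 DAT. The calmodulin on 2A (TraesCS2A01G166300.1), a calcium sensor, had 23.9, 24.6, 24.7 and 16.8 CPM in control and 6, 7.18, 7.36 and 4.72 CPM in heat at 1 DAT. At 4 DAT the values were 21.6, 15.8, 19.9 and 17.1 CPM in control and 7.49, 7.49, 11.2 and 6.94 CPM in heat. Heat was below control without overlap on both days, with effects of -1.84 ± 0.19 (edgeR adjusted p = 1.5e-06) and -1.15 ± 0.18 (0.013), and at 0 DAT the effect was -1.25 ± 0.18. The change of 0.69 ± 0.26 was not called (edgeR adjusted p = 0.2).

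The families of conserved microRNA targets were not called in the contrast. Squamosa promoter-binding-like (SPL) proteins, transcription factors of phase change and targets of miR156, had changes from -0.35 to 0.97 over 11 tested transcripts. The member with the smallest p, on 6A (TraesCS6A01G155300.1), had 4.13, 2.92, 4.44 and 4.48 CPM in control and 2.76, 1.79, 2.39 and 1.63 CPM in heat at 1 DAT, and 3.03 ± 0.679 against 3.2 ± 0.947 CPM at 4 DAT (SD, n = 4; change 0.97 ± 0.39, edgeR adjusted p = 0.26). Homeobox leucine-zipper (HD-ZIP) transcription factors, targets of miR166, ranged from -0.2 to 0.53 in 4 transcripts, and auxin receptors of the TIR1 type, targets of miR393, from 0.09 to 0.75 in 6. The 6 TIR1 values were all above 0, with adjusted p of 0.65 and more.

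The 3 ATP sulfurylases, which activate sulfate and are targets of miR395, had changes of 0.18 to 0.3 (adjusted p of 0.87 and more). The copy on 5B (TraesCS5B01G387300.1) had 26.9, 30.8, 33.3 and 19.3 CPM in heat at 1 DAT, but 17.5, 9.56, 15.2 and 68.2 CPM in heat at 4 DAT, so 1 library set the mean on the later day. The same library, heat 4 DAT replicate 4, was the highest of its group in the 5A and 5D copies too, at 65.2 and 45.2 CPM. Over 28 alternatives the change ran from -0.77 to 0.45 on 5B, -0.65 to 0.49 on 5A and -0.41 to 0.58 on 5D. The 2 copper-zinc superoxide dismutases, which remove superoxide and are targets of miR398, had changes of -0.86 ± 0.35 on 2B (TraesCS2B01G417000.1) and -0.57 ± 0.35 on 2A (TraesCS2A01G399000.1), neither called (edgeR adjusted p = 0.26 and 0.52). The 2B copy had a mean of 10 ± 1.93 CPM in heat and 6.21 ± 2.42 CPM in control at 1 DAT, and 4.46 ± 0.516 and 5.04 ± 1.34 CPM at 4 DAT (SD, n = 4).

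The remaining lists had 0 calls each. Their median changes were -0.45 over 2 chaperones, 0.11 over 5 photosynthesis members, 0.1 over 8 redox members, 0.17 over 12 members for sulfur and metals and -0.05 over 4 cell wall members. They were -0.03 over 11 members for amino acid metabolism, 0.07 over 8 defence members, 0.14 over 25 members of the protein kinase list and 0.04 over 14 F-box members. The protein kinase list was matched by words in the names and includes a serine/threonine-protein phosphatase (TraesCS3D01G261300.1). Among transcription factors the median was -0.63 over 2 auxin response factors, 0.34 over 9 NF-Y subunits and 0.28 over 9 GRAS proteins. The median over all tested transcripts was 0.03. It was -1.09 over the 3 cytochromes P450 and 1.67 over 3 calcium members, where a putative calmodulin on 5B (TraesCS5B01G480300.1), with a mean of 1.73 CPM or less in each group of 1 and 4 DAT, had a change of 4.85 ± 1.37 (edgeR adjusted p = 0.075, called by DESeq2 at 0.024).

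**Figure D4:**
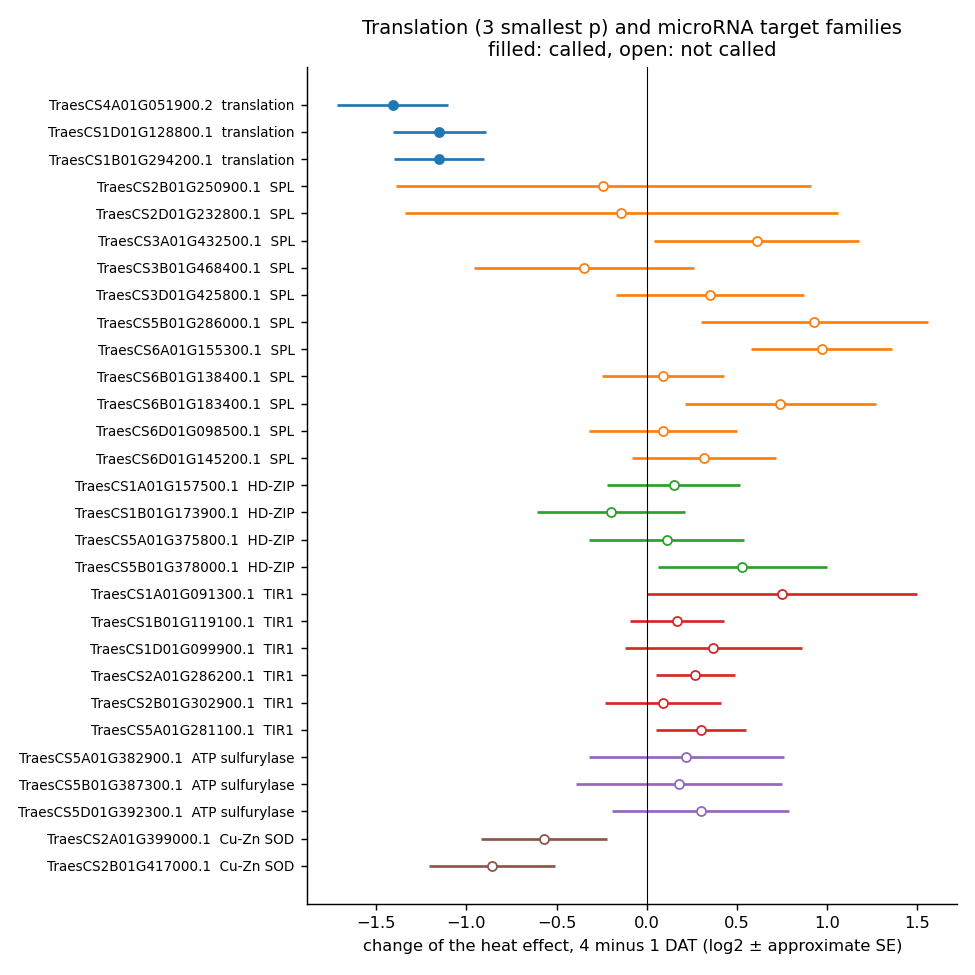
Change of the heat effect from 1 to 4 DAT (horizontal axis, log2, with bars of 1 approximate SE) for the 3 translation members with the smallest p and for all tested members of 5 microRNA target families, filled where called. The 3 translation members, chosen for their p, lie between -1.41 and -1.15, out of a range of -1.41 to 1.05 over all 14 tested, and the members of the target families, none of them called, lie between -0.86 and 0.97.

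Most of the 1015 transcripts have no name in the sources used here. The largest changes among them, at levels of at least 5 CPM, came from transcripts that were near 0 in 1 or more groups, so values are given in place of fold changes. TraesCS4A01G066100.1 had 6.86, 3.09, 3.5 and 11.8 CPM in heat 1 DAT, at most 0.133 CPM in control 1 DAT and at most 0.215 CPM in every library of 4 DAT (edgeR adjusted p = 0.019). It had 9.64 to 35.9 CPM in heat and at most 0.118 CPM in control at 0 DAT, so it was present in heat at 0 and 1 DAT and near 0 elsewhere. The call was lost without the 4 libraries above (0.15), without control 4 DAT replicate 2 (0.075) and without control 4 DAT replicate 4 (0.068).

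TraesCS4A01G105000.2 was at 0 in all libraries of control 1 DAT and heat 4 DAT. It had 0.667, 7.47, 7.92 and 6.09 CPM in heat 1 DAT and 7.28, 2.69, 7.51 and 2.95 CPM in control 4 DAT (edgeR adjusted p = 0.012, or 0.085 without the 4 libraries above). Summed over the 2 tested transcripts of its gene the means were 7.1, 7.98, 7.55 and 8.11 CPM in control 1 DAT, heat 1 DAT, control 4 DAT and heat 4 DAT, and the change of the gene was -0.05 (edgeR adjusted p = 0.96). How counts are split between transcripts of 1 gene is an estimate, and its part in this pattern was not tested.

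In the other direction TraesCS5A01G003700.1 had at most 0.299 CPM in heat 1 DAT, against 1.7 to 10.4 CPM in control 1 DAT, 1.63 to 11.4 CPM in control 4 DAT and 2.32 to 15.5 CPM in heat 4 DAT (edgeR adjusted p = 0.04). TraesCS4D01G141500.1 had 0, 0.598, 0 and 0 CPM in heat 1 DAT, against 4.13, 3.22, 1.04 and 2.24 CPM in control 1 DAT and 2.32, 9.77, 11.7 and 2.18 CPM in heat 4 DAT (edgeR adjusted p = 0.024). Both were also low in heat at 0 DAT, with at most 1.65 and 1.4 CPM. The first call was lost under 16 of 28 alternatives, the pool block (0.098) and total-count scaling (0.067) among them, and the second under 8, and both were lost without the 4 libraries above (0.12 and 0.1).

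The transcripts with the smallest p in each direction, singled out after their values were seen, were TraesCS2A01G249600.1 and TraesCS5A01G245700.1. The first had 9.46, 6.55, 8.62 and 6.53 CPM in control and 59.3, 44.1, 58.5 and 65.1 CPM in heat at 1 DAT, and 15.1, 16.1, 13.7 and 14.2 CPM in control and 16.2, 16.4, 12.9 and 16.6 CPM in heat at 4 DAT. Its 4 heat libraries of 1 DAT were far above the rest and the 4 DAT groups overlapped (change -2.8 ± 0.28, edgeR adjusted p = 0.00011). At 0 DAT the heat mean was 37.3 ± 10.7 CPM and the control mean 11.1 ± 2.27 CPM (SD, n = 4), and the call was made under all 28 alternatives.

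The second had 44, 46.1, 46.7 and 55 CPM in control and 27.2, 26.7, 24.3 and 21.8 CPM in heat at 1 DAT, and 40.1, 45.8, 40.3 and 46.3 CPM in control and 53.9, 41, 43.4 and 50.5 CPM in heat at 4 DAT. Heat was below control without overlap at 1 DAT and overlapped it at 4 DAT (change 1.07 ± 0.16, edgeR adjusted p = 0.0015). At 0 DAT the heat mean was 12.9 ± 1.4 CPM and the control mean 43.5 ± 3.17 CPM (SD, n = 4), so the heat means were 12.9, 25 and 47.2 CPM at 0, 1 and 4 DAT. Summed over the 2 tested transcripts of the gene, heat was not lower at 0 DAT, with means of 75.1 CPM in heat and 63.4 CPM in control. The sums were 41.3 and 90 CPM at 1 DAT and 73.6 and 77.9 CPM at 4 DAT. The change of the sum was 1.05 and not called (edgeR adjusted p = 0.11), and that of the transcript alone was not called with total-count scaling (0.95, edgeR adjusted p = 0.15).

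**Figure D5:**
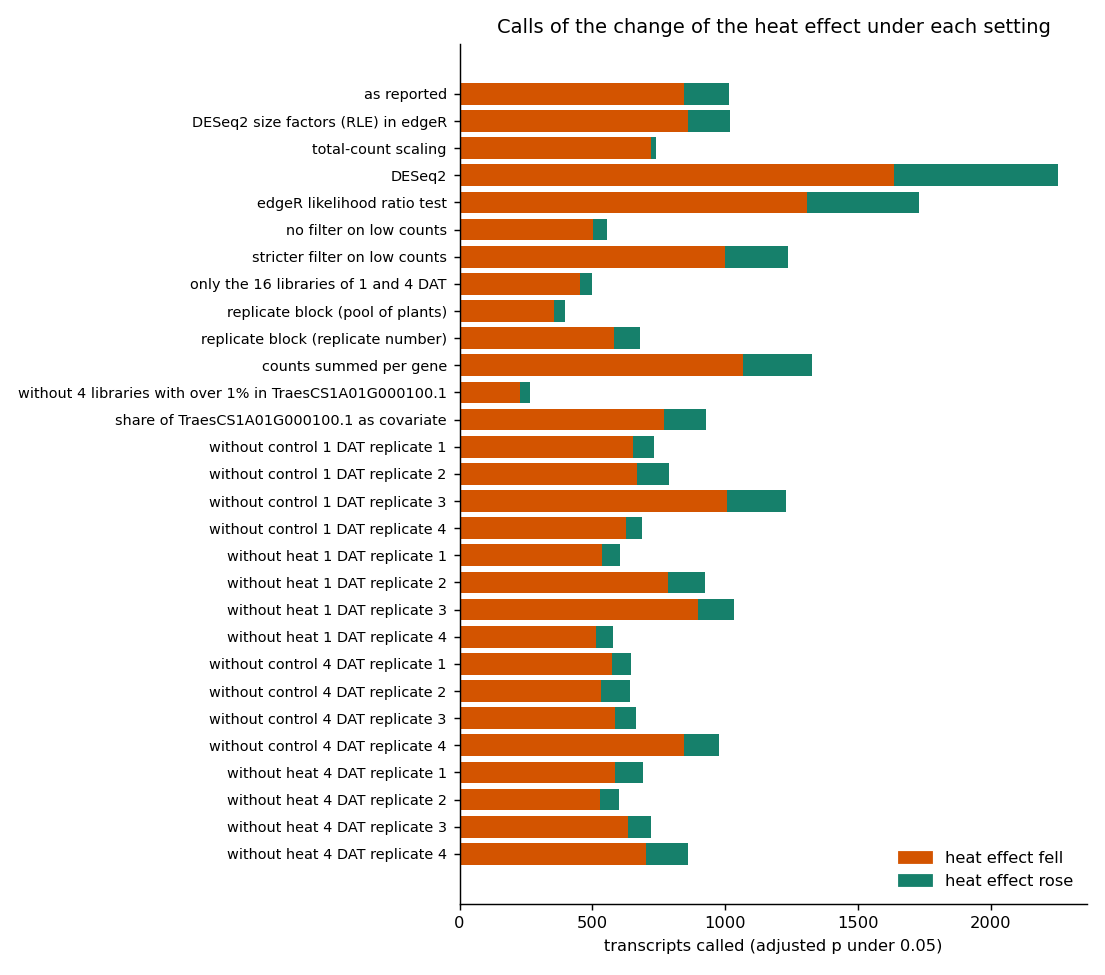
Number of transcripts called in the contrast (horizontal axis, adjusted p under 0.05) under the reported fit and each alternative, with falling heat effects in orange and rising ones in green. Falling effects outnumber rising ones under every setting, while the total runs from 264 without 4 libraries to 2252 with DESeq2, against 1015 as reported.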

How the data were processed

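The authors deposited a table of estimated counts per transcript for 24 leaf libraries. The submitters' processing notes name Trimmomatic and kallisto, with no versions. The index of transcripts was not given in the sources used here. Because a read that fits several similar transcripts is divided among them, 38.8% of the values were fractional, and levels of single homoeologous copies carry an error that the replicate spread does not show. Of 137056 transcripts of 110790 genes, 30001 were at 0 throughout, and 409 of the tested ones had the same values as another transcript.

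Counts were rounded to whole numbers. R 4.3.3 was used with edgeR 4.0.16 and limma 3.58.1. After filterByExpr (minimum count 10, minimum total 15), 54517 transcripts entered a quasi-likelihood fit with TMM factors and 6 group means over all 24 libraries. Two-sided tests were adjusted by Benjamini-Hochberg over all transcripts, with a threshold of 0.05. The SE was derived as the absolute log2 difference over the square root of F and is approximate. DESeq2 1.42.0, the likelihood ratio test, other scalings and filters, replicate blocks, sums per gene and fits without single libraries or the 4 libraries over 1% in TraesCS1A01G000100.1 were alternatives.

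The reported fit had group means alone and no pairing. Same-numbered libraries of a treatment were taken as paired only in the pool block, because the study's methods sample the same plants at each time. Their deviations from the group means did not go together across transcripts, with correlations of -0.259 to 0.0129 between 1 and 4 DAT against -0.191 to 0.279 for other pairs, and 0 of 8 libraries correlated best with its own number. Each pool is a biological replicate of 18 plants.

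None of the IDs (0) was found in the RefSeq gene list of assembly IWGSC CS RefSeq v2.1, hence coordinates are left out and chromosomes are read from the IDs. Names and sites come from a shortened copy of the study's list of targets, which lists 614 of the deposited transcripts, 595 of them with a name. That list writes each small RNA from its 3′ end: reversed, 149 of 149 equalled the mature sequence of that name in the study's list of microRNAs, and all 1622 alignments of equal length then paired with at most 1 in 3 bases unpaired. Named transcripts were up to 15 called, annotated transcripts with at least 5 CPM in each direction, the 3 smallest p of each list, all tested members of 5 target families and the 2 highest and 2 lowest unannotated calls. Members, lists and rules were chosen with earlier results of these data known.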

Additional observations from a re-analysis of the deposited data

Results flagged for a closer look

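The heat effect differed between 1 and 4 DAT in 1015 transcripts by the test of the difference itself (edgeR's quasi-likelihood test). Among the named transcripts the log2 change was -3.27 for fructokinase-2, -2.92 for the ligase on 1D, -1.76 for the RNA helicase, -1.41 for the methionine--tRNA ligase, -1.27 for the lipase, -1.15 for each of the ribosomal proteins L5 and L36, and 1.04 for the phosphopantothenoylcysteine decarboxylase.

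Single libraries stood apart from the other 3 of their group by Dixon's test in 10 of 68 groups of values checked. For normally distributed values chance gives about 1 in 20. Some groups held values at or near 0, and the called transcripts were chosen for their changes, so these rates are not compared. Fructokinase-2 was at 9.18 CPM in heat 1 DAT replicate 4, the helicase at 18.9 CPM in control 4 DAT replicate 4, and L36 at 15.2 CPM in heat 4 DAT replicate 1. The unnamed transcript TraesCS4A01G066100.1 was at 0.133 CPM in control 1 DAT replicate 1, TraesCS4D01G141500.1 at 0.598 CPM in heat 1 DAT replicate 2, and TraesCS2A01G249600.1 at 12.9 CPM in heat 4 DAT replicate 3. TraesCS1A01G000100.1 was at 99500 CPM in heat 1 DAT replicate 3 and at 40500 CPM in control 4 DAT replicate 2. The share of counts in the 3 most abundant transcripts was 11.3% in replicate 4 of heat 1 DAT and 22.3% in replicate 4 of heat 4 DAT, apart from the other libraries of their groups. The cause of these values was not tested.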

How the results depend on the processing

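The number of changed heat effects, 1015 as reported, was 2252 with DESeq2, 1730 with the likelihood ratio test, 556 without a filter on low counts, 500 with only the 16 libraries of 1 and 4 DAT and 264 without the 4 libraries over 1% in TraesCS1A01G000100.1. Leaving out 1 library gave 578 to 1228, with 603 without heat 1 DAT replicate 1, 578 without replicate 4, 647, 641 and 664 without control 4 DAT replicates 1, 2 and 3, and 601 without heat 4 DAT replicate 2. Falls made up 81.5% to 91.3% of the calls in these fits. The count at 1 DAT, 7358, was 4342 with total-count scaling, and 5385 to 7611 without 1 library. The count at 4 DAT, 98, was 60 with total-count scaling, 655 with DESeq2, 482 with the likelihood ratio test, 45 without a filter, 9 with only 16 libraries, 205 summed per gene, 3 without the 4 libraries, 41 with a covariate for the share of that transcript and 12 to 116 without 1 library, with 15, 12, 40 and 41 without heat 4 DAT replicates 1 to 4, 37, 50, 62 and 59 without control 4 DAT replicates 1 to 4 and 61 without control 1 DAT replicate 1. The count within heat, 3757, was 2067 with total-count scaling, 5774 with DESeq2, 2405 without a filter, 2196 with only 16 libraries, 1057 without the 4 libraries and 2123 to 4094 without 1 library, with 2319 and 2292 without heat 1 DAT replicates 1 and 4 and 2123 and 2326 without heat 4 DAT replicates 2 and 3. Within control DESeq2 called 45, the likelihood ratio test 13 and the fits without 1 library 0 to 1. At 0 DAT the count was 12940 to 13772 without 1 library, and with total-count scaling 12383 were higher and 2527 lower, against 5979 and 7252. With the replicate block by pool of plants the change was called in 396 transcripts and the difference within heat in 2225, and it changed no call of a named transcript beyond those given with the results. With the replicate block by number 44 were called at 4 DAT and 678 in the change. The share of falling effects called higher at 0 DAT was 56.7% to 85% and that of rising effects called lower 47.1% to 75% over 27 alternatives, 1 of them added after the data were seen. The causes were not tested, beyond the fewer libraries or transcripts that some settings use. No named transcript had a called change of the heat effect that took the opposite sign under an alternative. The balance of higher and lower calls did shift at 0 DAT with total-count scaling, as given above. At 4 DAT 61.2% of the calls were lower in heat as reported. That share was 40% without heat 4 DAT replicate 1 and 33.3% without the 4 libraries. Total counts of 5403461 to 13119876 limit the precision of weakly expressed transcripts.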
